A study of Mus musculus with 18 samples.

Results

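The siRNA experiment of this series asked whether knocking down Echs1 alters the transcriptome of 2-cell mouse embryos, and its 2 by 2 design allows the effect at one stage to be set against the effect at the other. All 12 libraries of that experiment, of 18 in the series, entered the comparison described here. They were siCon E2C (control siRNA), siEchs1 E2C (siRNA against Echs1), siCon L2C and siEchs1 L2C, with 3 libraries in each of 4 groups. The other 6 libraries belonged to a treatment experiment with sodium salts and were not used. Each library came from 5 to 10 pooled embryos and was made by Smart-seq2, which copies polyadenylated RNA over its whole length. The labels gave mouse as the organism and embryo as the tissue. They gave no strain, siRNA sequence, dose or collection time, and they did not spell out L2C. E2C was spelled out as early 2-cell only for the treatment experiment.

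The quantity examined was the difference of the siEchs1 effects, that is, siEchs1 minus siCon at L2C, minus siEchs1 minus siCon at E2C, on the log2(FPKM + 1) scale. FPKM counts sequenced fragments relative to exon length and to library depth. A gene called lower had a more negative siEchs1 effect at L2C than at E2C, and a gene called higher had a more positive one. Written the other way round, the same quantity is the change from E2C to L2C in siEchs1 minus that change in siCon. Genes were called at an adjusted p under 0.05 (limma, all 12 libraries in 1 fit).

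The mouse zygote starts out with RNA and protein stored in the oocyte. At the 2-cell stage the embryonic genome is switched on, first with a burst of transient 2-cell genes and then with a broad set of genes for ribosome production, RNA synthesis, transport and metabolism, while maternal RNA is degraded. Echs1 is the mitochondrial short-chain enoyl-CoA hydratase, which hydrates crotonyl-CoA among other substrates of fatty acid and branched-chain amino acid oxidation. Crotonyl-CoA is also the donor for histone crotonylation, a mark that p300 can write and class I histone deacetylases can remove.

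Ribosome biogenesis factors were among the genes called lower, and promoters of members that were called are shown for their sequence context. Of 83 tested members, 71 matched a RefSeq promoter by symbol, with 84 windows between them. Each window held 250 bases before and 50 bases after the annotated start, on GRCm38.p6. The E-box CACGTG, which reads the same on both strands, was found in 16 of these 84 windows (19%), in 6 of the 30 windows of members called lower (20%) and in 1370 of 14524 windows of tested genes (9.43%). The following 2 windows belonged to the 2 of these genes described next that held an E-box, and capitals mark it.
Nop2, chr6:125131633-125131932, plus strand: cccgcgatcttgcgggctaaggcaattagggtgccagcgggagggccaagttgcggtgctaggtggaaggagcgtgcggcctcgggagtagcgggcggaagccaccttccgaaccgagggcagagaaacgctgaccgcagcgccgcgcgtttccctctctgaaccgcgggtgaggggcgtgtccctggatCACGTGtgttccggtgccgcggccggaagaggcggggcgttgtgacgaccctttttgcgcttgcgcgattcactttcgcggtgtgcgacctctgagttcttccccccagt
Mybbp1a, chr11:72441077-72441376, plus strand: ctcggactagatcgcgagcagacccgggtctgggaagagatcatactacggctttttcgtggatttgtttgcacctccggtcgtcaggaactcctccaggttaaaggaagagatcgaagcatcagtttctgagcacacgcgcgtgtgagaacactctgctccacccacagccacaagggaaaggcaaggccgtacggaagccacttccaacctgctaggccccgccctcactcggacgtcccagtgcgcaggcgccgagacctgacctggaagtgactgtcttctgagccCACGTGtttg
The E-box began at base 191 of the window in Nop2 and at base 291 in Mybbp1a. Of the windows of all genes called lower 11.9% held it, and of the windows of genes called higher 7.57% did. These matches describe letters in the windows and were not tied to binding by any measurement here. The GC box GGGCGG was searched on both strands and was found in 63% of windows of genes called lower, 44.5% of those called higher and 56.1% of those of all tested genes.

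Knockdown was checked first. Echs1 (ENSMUSG00000025465.13, chromosome 7, 140105710 to 140116476, minus strand, protein-coding, mm10) stood at 30.5, 27.5 and 32.5 FPKM in replicates 1 to 3 of siCon E2C and at 0.71, 5.88 and 3.82 FPKM in siEchs1 E2C. At L2C it stood at 38.6, 39.2 and 24.4 FPKM in siCon and at 0.89, 4.32 and 4.25 FPKM in siEchs1. All 6 siEchs1 libraries lay below all 6 siCon libraries. The effect on Echs1 itself was -3.02 at E2C and -3.19 at L2C, and their difference was -0.18 ± 0.74 (SE, adjusted p = 0.892).

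The FPKM totals of the libraries lay between 708113 and 1123993, and 13378 to 16703 genes reached 1 FPKM. Read counts were not used and depth is unknown, since at the best-fitting depth 36.6% to 50.2% of low values lay within 0.15 of a whole fragment, too few to recover counts. Replicate 3 of siEchs1 E2C stood apart from the others of its group. Its Spearman rho across genes was 0.67 with replicate 1 and 0.725 with replicate 2, against 0.904 between those. With the siCon E2C libraries it was 0.716 to 0.733, and with siEchs1 L2C 0.667 to 0.715. Replicates 1 and 2 had a rho of 0.772 to 0.869 with siEchs1 L2C, so the group without replicate 3 lies closer to siEchs1 L2C. The main counts are also given without replicate 3. The share of mitochondrially encoded RNA was 2.82%, 1.69% and 10.3% of summed FPKM in siEchs1 E2C, 0.831% to 2.27% in siEchs1 L2C, 7.58% to 11.2% in siCon L2C and 13.1% to 17.1% in siCon E2C. Whether replicates were separate matings or cultures is not given in the labels, so p-values reflect the spread of these libraries alone, and that spread may be technical.

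The siEchs1 effect differed between the stages in both directions, and more genes were called lower than higher. Of 17652 tested genes, 2042 (11.6%) were called lower and 997 (5.65%) higher. Most genes called lower rose from E2C to L2C in siCon embryos, and few of them passed for a rise in siEchs1 embryos. Most genes called higher fell in siCon embryos, and few passed for a fall in siEchs1 embryos. Over the genes called lower, the median level in log2(FPKM + 1) was 1.31 in siCon E2C, 1.51 in siEchs1 E2C, 4.12 in siCon L2C and 1.77 in siEchs1 L2C. Over the genes called higher it was 4.67, 3.78, 2.29 and 4.20 in the same order. These medians describe genes picked by the same values and are not a test. A gene nearly absent in both arms at E2C can show little decrease there. The negative difference of such a gene is then mainly its effect at L2C. With a pseudocount of 0.1, 1073 genes were called lower and 721 higher.

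**Figure D1:**
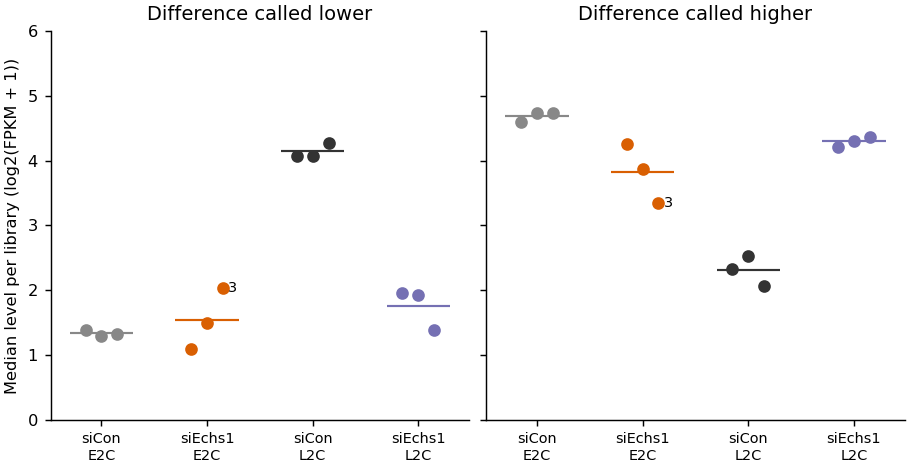
Median level per library, in log2(FPKM + 1), of the 2042 genes called lower (left) and the 997 called higher (right). Points are replicates 1 to 3 from left to right, lines are group means, and replicate 3 of siEchs1 E2C carries its number. In the left panel siCon L2C lies above the other 3 groups, and in the right panel it lies below them.

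Of the genes called lower, 1962 passed the test for a rise with stage in siCon and 225 did so in siEchs1. Across all tested genes, 6326 (35.8%) rose and 2544 (14.4%) fell with stage in siCon, while 2090 (11.8%) rose and 482 (2.73%) fell in siEchs1. The last 2 counts were 1015 and 159 without siEchs1 L2C replicate 1, and 1261 and 262 without replicate 2, and the count that fell was 247 without siEchs1 L2C replicate 3 and 897 without siEchs1 E2C replicate 3. Of the genes called higher, 849 fell with stage in siCon and 51 fell in siEchs1. The stage changes share their libraries with the difference, so these counts restate its shape and are not further evidence. The siEchs1 effect itself was called at L2C for 3866 genes higher (21.9%) and 4745 lower (26.9%), and at E2C for 1934 higher (11%) and 1644 lower (9.31%). Without siEchs1 E2C replicate 3 the count higher at E2C was 4052. It was 1164, 902 and 882 without siCon E2C replicates 1, 2 and 3 and 882 without siEchs1 E2C replicate 2, and the count lower was 1080 and 1007 without siCon E2C replicates 2 and 3 and 1024 without siEchs1 E2C replicate 2. Among genes called lower for the difference, 1667 had an effect that passed at L2C alone, 195 at E2C alone, 62 at both with the same sign and 66 at both with opposite signs, and 52 at neither. Among genes called higher, 565 passed at L2C alone, 270 at E2C alone, 67 at both with the same sign, 55 at both with opposite signs and 40 at neither.

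**Figure D2:**
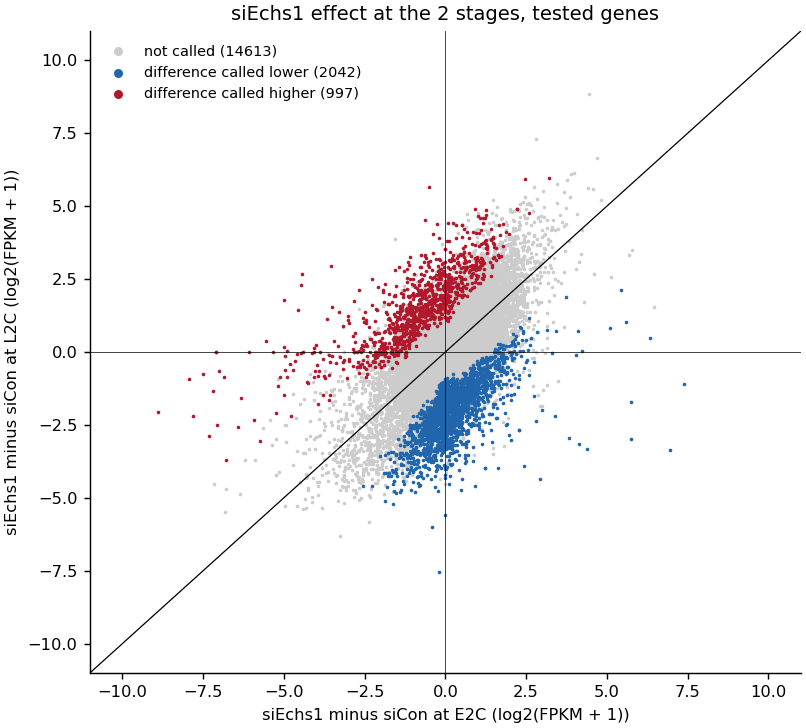
The siEchs1 effect at E2C (horizontal) against the effect at L2C (vertical), both in log2(FPKM + 1), for the tested genes. Each point is a gene, the diagonal marks equal effects, and genes called lower (2042) or higher (997) lie off it on either side.

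Leaving out replicate 3 of siEchs1 E2C raised the counts to 2772 lower (15.7%) and 1289 higher (7.3%), and 1963 and 967 of the calls on all 12 libraries were among them. Calls lower fell to 1205 without siCon E2C replicate 2, 1071 without siCon E2C replicate 3 and 831 without siEchs1 L2C replicate 3. Calls higher were 639, 589 and 495 without siCon E2C replicates 1, 2 and 3, 652 without siCon L2C replicate 3, 609 and 460 without siEchs1 L2C replicates 2 and 3, and 1517 without siEchs1 E2C replicate 1. In all 12 fits that left out 1 library, 796 of the genes called lower and 408 of those called higher kept their call and sign. The balance of the directions moved with the scaling. The median difference over all tested genes was -0.21, and it was 0 after quantile normalization and -0.39 after rescaling without mitochondrial and ribosomal RNA. The calls were split 1558 lower to 1600 higher after quantile normalization (49.3% lower, against 67.2% as deposited), and 2427 to 839 after the rescaling. Values below are on the deposited scale.

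The largest differences of named genes with a mean of at least 5 FPKM show both patterns. Cidea, a lipid droplet protein, had the most negative value among them. It stood at 0.19, 0.05 and 0.95 FPKM in siCon E2C, 0, 0.05 and 0 in siEchs1 E2C, 33.7, 95.3 and 105 in siCon L2C and 0.11, 0.14 and 0.04 in siEchs1 L2C, a difference of -5.61 ± 0.59 (SE, adjusted p = 0.000385). Its siCon L2C libraries lay above all 9 others. Impdh1, an enzyme of guanine nucleotide synthesis, stood at 0.44, 0.73 and 0.75 FPKM in siCon E2C, 0.39, 0.79 and 5.07 in siEchs1 E2C, 71.4, 57.6 and 147 in siCon L2C and 6.78, 8.47 and 2.03 in siEchs1 L2C (difference -4.42 ± 0.82 (SE, adjusted p = 0.00663)). Slc5a11, a sodium-coupled inositol transporter, was at 40.2, 19.8 and 63.8 FPKM in siCon L2C and at 3.49 FPKM or less in each of the 9 other libraries (difference -5.19 ± 0.77 (SE, adjusted p = 0.00274)). Ajap1 (-5.54), Celf4 (-4.85), Sardh (-4.31), C1rl (-4.26), Frrs1 (-4.24) and Amn (-4.12) were called lower with the same order of groups, siCon L2C being the highest. The calls of Celf4 (adjusted p = 0.0561), Sardh (0.0758), C1rl (0.0666) and Amn (0.102) ended with a pseudocount of 0.1.

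Bc1, a small cytoplasmic RNA annotated as a lincRNA, was the exception among the 10 genes with the most negative differences. It was listed at 0 in all 3 libraries of siCon E2C, at 39.6, 76.7 and 12.1 FPKM in siEchs1 E2C, at 5.67, 1.32 and 5.6 in siCon L2C and at 3.63, 6.88 and 14.6 in siEchs1 L2C (difference -4.28 ± 0.91 (SE, adjusted p = 0.0107)). Its siEchs1 effect passed at E2C (adjusted p = 0.000424) and not at L2C (0.83, adjusted p = 0.303). The negative difference of Bc1 thus came with a rise at E2C.

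Sec61g, a subunit of the translocon through which proteins enter the endoplasmic reticulum, had effects that passed in opposite directions. It stood at 528, 698 and 681 FPKM in siCon E2C and 157, 108 and 54.3 in siEchs1 E2C, and at 19.9, 24.8 and 18.9 in siCon L2C and 93, 108 and 83.8 in siEchs1 L2C. Its siEchs1 effect was -2.68 at E2C and 2.11 at L2C (difference 4.79 ± 0.51 (SE, adjusted p = 0.000406)), and groups did not overlap at either stage. Pde6d, a carrier of prenylated proteins, stood at 138, 176 and 124 FPKM in siCon E2C, 372, 364 and 36.3 in siEchs1 E2C, 10.8, 14.3 and 11.7 in siCon L2C and 219.5, 250.1 and 419 in siEchs1 L2C. Its difference was 4.20 ± 0.98 (SE, adjusted p = 0.0157), and 3.09 without replicate 3 of siEchs1 E2C, the library with the lowest of these siEchs1 values. Hist1h2aa, a histone H2A gene, stood at 2.9, 5.35 and 2.02 FPKM in siCon L2C and 40.6, 35.4 and 49.3 in siEchs1 L2C, with an effect at L2C of 3.33 and a difference of 4.08 ± 0.67 (SE, adjusted p = 0.00446). Serpinb12 (4.38), Atp6v0e2, a subunit of the vacuolar proton pump (4.24), and the immune receptor segments Iglc2 (4.78) and Trav7n-6 (4.33) were called higher as well.

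Ftx, a long noncoding RNA of the X-inactivation centre, was called higher although it was lower in siEchs1 at both stages. It stood at 135, 102 and 92 FPKM in siCon E2C and 0.49, 0.65 and 0.03 in siEchs1 E2C, and at 3.06, 3.86 and 1.45 in siCon L2C and 0.27, 0.27 and 0.15 in siEchs1 L2C. The effect was -6.32 at E2C and -1.57 at L2C (difference 4.76 ± 0.49 (SE, adjusted p = 0.000333)). With siCon L2C values this low, little decrease could show at L2C, so the positive difference is mainly the effect at E2C. Il17b (5.15), an interleukin gene, lost its call without siCon E2C replicate 3 (adjusted p = 0.0501), with no filter on low values (0.0537) and with a pseudocount of 0.1 (0.0634). Dph6, with the largest value of any of these (5.98, adjusted p = 0.0404), lost its call with no filter (0.108), with a pseudocount of 0.1 (0.0623), after quantile normalization (0.0537) and without each of 9 libraries, namely the 3 of siCon E2C (adjusted p = 0.0675, 0.0894 and 0.0723), siEchs1 E2C replicates 1 and 2 (0.0597 and 0.0812), siCon L2C replicates 1 and 3 (0.0907 and 0.088) and siEchs1 L2C replicates 2 and 3 (0.077 and 0.0548).

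A rising and a falling set of genes were chosen by the stage change averaged over siCon and siEchs1, not by the difference. They describe the same pattern. That average and the difference are orthogonal contrasts, but both come from the same 12 libraries and the same fit. Each gene's variance estimate entered the choice as well as the calls, so the shares called are not an independent test. The rising set held 1330 genes whose mean change was at least 2 on the log2 scale. Its median change from E2C to L2C was 3.25 in siCon and 1.78 in siEchs1. In this set 459 genes (34.5%) were called lower and 18 (1.35%) higher, against 11.6% and 5.65% of all tested genes, with a median difference of -1.46. The falling set held 268 genes, with a median stage change of -3.39 in siCon and -1.23 in siEchs1. Of these, 147 (54.9%) were called higher and 0 lower, with a median difference of 2.14.

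**Figure D3:**
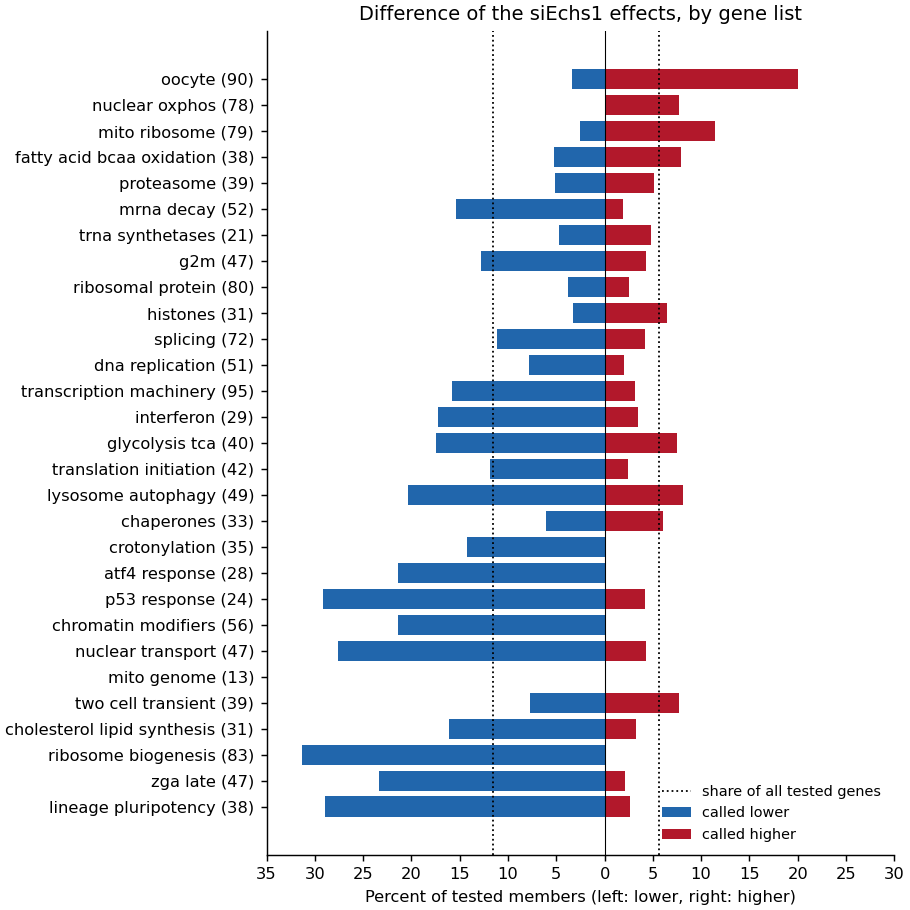
Share of tested members of each of 29 gene lists called lower (blue, to the left) or higher (red, to the right) for the difference of the siEchs1 effects, in percent. Lists are ordered by their median difference, the number of tested members is in brackets, and dotted lines mark the shares among all tested genes (11.6% lower, 5.65% higher).

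Most genes for making ribosomes rose with stage in siCon, and fewer of them did so in siEchs1. For the difference, 11.6% of all tested genes were called lower and 5.65% higher, the shares to set beside the lists on all 12 libraries from here on. Each fit without 1 library has its own shares, which were 15.7% and 7.3% without siEchs1 E2C replicate 3. Without siEchs1 L2C replicate 3, 831 of the 17652 tested genes were called lower and 460 higher. Of 83 tested ribosome biogenesis factors, 26 (31.3%) were called lower and 0 higher, with a median difference of -1.21 against -0.21 over all tested genes. In siCon 64 of them (77.1%) rose from E2C to L2C, and in siEchs1 22 (26.5%) did, against 35.8% and 11.8% of all tested genes. At L2C the siEchs1 effect was called lower for 38 members (45.8%) and higher for 4 (4.82%), against 26.9% and 21.9% of all tested genes. At E2C it was called lower for 4 (4.82%) and higher for 8 (9.64%), against 9.31% and 11%. The count called lower was 10 without siEchs1 L2C replicate 3, 12 without siCon E2C replicate 2, siCon E2C replicate 3 or siCon L2C replicate 3, 13 without siCon E2C replicate 1, 16 without siCon L2C replicate 1 or siEchs1 L2C replicate 1 and 44 without siEchs1 E2C replicate 3. Nop2, an rRNA methyltransferase of the large subunit pathway whose promoter is shown above, stood at 2.03, 3.04 and 3.21 FPKM in siCon E2C, 2.79, 5.31 and 1.81 in siEchs1 E2C, 114, 97.1 and 175 in siCon L2C and 18.1, 16.9 and 6.77 in siEchs1 L2C. Its siCon and siEchs1 libraries overlapped at E2C and were apart at L2C (difference -3.31 ± 0.60 (SE, adjusted p = 0.00621)). Polr1b, the second-largest subunit of RNA polymerase I, stood at 1.98, 2.93 and 1.91 FPKM in siCon E2C, 1.3, 2.42 and 1.58 in siEchs1 E2C, 22.4, 30.2 and 40.9 in siCon L2C and 2.88, 4.1 and 2.34 in siEchs1 L2C (difference -2.70 ± 0.47 (SE, adjusted p = 0.00543)). Rrp9, a U3 snoRNP protein, reached 185, 148 and 225 FPKM in siCon L2C and 35, 32.3 and 24.5 in siEchs1 L2C, from 14 FPKM or less in all 6 E2C libraries (difference -2.83 ± 0.54 (SE, adjusted p = 0.00716)). Mybbp1a, a nucleolar protein, had a difference of -2.94 ± 0.55 (SE, adjusted p = 0.00679). Nop58, a core protein of box C/D snoRNPs, was at 214, 205 and 400.3 FPKM in siCon L2C and 99.9, 159 and 124 in siEchs1 L2C, and its difference did not pass (-1.24 ± 0.49 (SE, adjusted p = 0.0997)). With replicate 3 of siEchs1 E2C left out it passed (-1.50, adjusted p = 0.0228), and after the rescaling (adjusted p = 0.0392).

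Cytosolic ribosomal proteins, the products that ribosome biogenesis assembles, had few calls on all 12 libraries. Of 80 tested, 3 were called lower and 2 higher (3.75% and 2.5%). Without replicate 3 of siEchs1 E2C 28 were lower and 3 higher, against 15.7% and 7.3% of all tested genes in that fit. Their median then moved from -0.37 to -1.17, beside -1.51 for ribosome biogenesis factors, so the contrast between these lists rested on that library. Only 1 ribosomal protein was called lower without siCon E2C replicates 1, 2 or 3, siCon L2C replicate 3 or siEchs1 L2C replicates 1 or 3. The median was 0.13 without siEchs1 E2C replicate 1, so its sign rested on which library of that group was kept. Rpl8 was at 35.4, 39.9 and 34 FPKM in siCon E2C and 74.1, 90.5 and 87.3 in siEchs1 E2C, and at 290.4, 384 and 382 in siCon L2C and 194, 170.3 and 147 in siEchs1 L2C. It was higher in siEchs1 at E2C (1.18) and lower at L2C (-1.04), with no overlap at either stage (difference -2.22 ± 0.37 (SE, adjusted p = 0.0048)). Rpl29 went the other way, with 34.1, 63.7 and 39.2 FPKM in siCon E2C, 9.3, 9.19 and 2.93 in siEchs1 E2C, 16.1, 15.6 and 23.1 in siCon L2C and 16.9, 22.1 and 20.9 in siEchs1 L2C (difference 2.73 ± 0.57 (SE, adjusted p = 0.0103)). Ribosomal protein genes have many processed copies in the genome, and how reads were shared among them is not given in the sources used here.

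Genes known for the broad wave of embryonic activation behaved like the ribosome biogenesis factors. In that list 11 of 47 tested members were called lower (23.4%) and 1 higher (2.13%), with a median difference of -1.41. Leaving out single libraries, the count was 6 without siEchs1 L2C replicate 3 and 7 without siCon E2C replicate 1, siCon E2C replicate 2 or siCon E2C replicate 3. Rarg, a retinoic acid receptor, was at 35.4, 30.1 and 62.6 FPKM in siCon L2C, 1.89, 3.63 and 0.44 in siEchs1 L2C and at 3.98 FPKM or less in each E2C library (difference -3.94 ± 0.86 (SE, adjusted p = 0.0123)). With a pseudocount of 0.1 its call ended (adjusted p = 0.144). Cdk9, the kinase that releases paused RNA polymerase II, stood at 7.68, 11.5 and 11 FPKM in siCon E2C, 7.21, 14.1 and 5.75 in siEchs1 E2C, 194, 246 and 310.0 in siCon L2C and 58.8, 31.4 and 19.5 in siEchs1 L2C. All 3 siEchs1 L2C values of Cdk9 lay above every E2C value and below every siCon L2C value (difference -2.64 ± 0.60 (SE, adjusted p = 0.0146)).

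Lineage and pluripotency regulators overlap with that list, and 11 of 38 tested were called lower (28.9%) and 1 higher (2.63%), with a median difference of -1.45. Calls lower numbered 4 without siEchs1 L2C replicate 3, 5 without siCon E2C replicate 2 and 7 without siCon E2C replicate 3. Tead4, the transcription factor needed for trophectoderm, stood at 0.15, 0.43 and 0.38 FPKM in siCon E2C, 0.05, 0.09 and 0 in siEchs1 E2C, 7.49, 11.2 and 25.6 in siCon L2C and 0.44, 0.52 and 0.10 in siEchs1 L2C. Its siEchs1 L2C values were within the range of its E2C values or slightly above it, and its siCon L2C values were all higher (difference -3.06 ± 0.53 (SE, adjusted p = 0.00527)). Gata4, a zinc finger factor of primitive endoderm, was at 87.2, 61.9 and 132 FPKM in siCon L2C and 12.5, 10.8 and 7.2 in siEchs1 L2C (difference -3.29 ± 0.64 (SE, adjusted p = 0.00768)). Klf5, known for roles in trophectoderm and pluripotency, was at 48.2, 42.5 and 38.3 FPKM in siCon L2C and 4.77, 2.76 and 1.66 in siEchs1 L2C (difference -2.47 ± 0.57 (SE, adjusted p = 0.0151)), and its call ended with a pseudocount of 0.1 (adjusted p = 0.307). Gata3, another trophectoderm factor, was the 1 member called higher. It stood at 13.1, 9.61 and 14.7 FPKM in siCon E2C, 7.35, 6.76 and 1.96 in siEchs1 E2C, 3.09, 3.36 and 1.83 in siCon L2C and 6.79, 11.2 and 11 in siEchs1 L2C (difference 2.70 ± 0.59 (SE, adjusted p = 0.0123)).

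**Figure D4:**
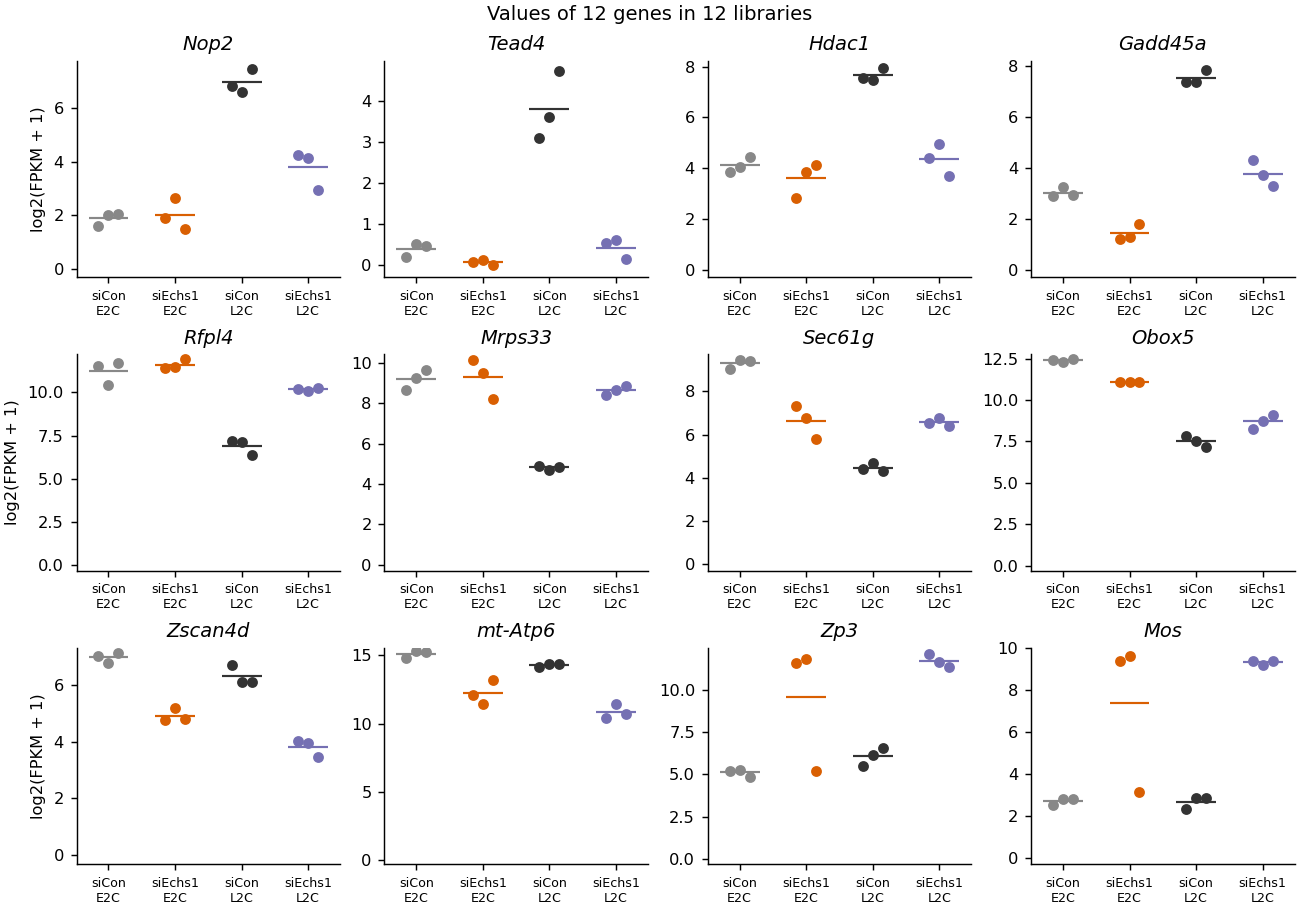
Values of 12 genes in the 12 libraries, in log2(FPKM + 1). Points are replicates 1 to 3 from left to right and lines are group means. Nop2, Tead4, Hdac1 and Gadd45a are high in siCon L2C alone, Rfpl4 and Mrps33 are low in siCon L2C alone, Sec61g and Obox5 change sign between stages, and Zscan4d, mt-Atp6, Zp3 and Mos were not called for the difference.

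Of 47 tested nuclear transport factors, 13 were called lower (27.7%) and 2 higher (4.26%), with a median of -0.94. The count called higher was 1 without siEchs1 L2C replicate 3. The count called lower was 7 without siEchs1 L2C replicate 3 and 8 without siCon E2C replicate 2 or siCon E2C replicate 3. Nup155, a scaffold nucleoporin, stood at 2.25, 2.83 and 1.85 FPKM in siCon E2C, 4.25, 3.2 and 3.68 in siEchs1 E2C, 13.2, 13.8 and 19 in siCon L2C and 1.92, 2.66 and 1.75 in siEchs1 L2C (difference -2.90 ± 0.42 (SE, adjusted p = 0.00265)). Xpo1, the main exporter of proteins with a leucine-rich signal, stood at 21.6, 29.6 and 20.4 FPKM in siCon E2C, 18.2, 16.2 and 15.2 in siEchs1 E2C, 57.1, 38.7 and 89.3 in siCon L2C and 4.65, 8.92 and 6.77 in siEchs1 L2C (difference -2.48 ± 0.50 (SE, adjusted p = 0.00884)). The siEchs1 L2C libraries of Xpo1 thus lay below its E2C libraries too. The import receptors Ipo4 (-2.88, adjusted p = 0.00719) and Tnpo3 (-3.07, adjusted p = 0.00746) were called lower.

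Chromatin modifiers had 12 of 56 tested members called lower (21.4%) and 0 higher, with a median of -0.94. With single libraries left out the count was 2 without siEchs1 L2C replicate 3, 4 without siCon E2C replicate 2 or siCon E2C replicate 3, 6 without siCon E2C replicate 1 and 7 without siCon L2C replicate 3. Of all 17652 tested genes, 831 were called lower without siEchs1 L2C replicate 3, and 1205 and 1071 without siCon E2C replicates 2 and 3. In those fits the share of the list lay near that of all tested genes. Suv39h1, a histone H3 lysine 9 methyltransferase of heterochromatin, stood at 1.72, 1.39 and 2.06 FPKM in siCon E2C, 2.23, 2.9 and 2.14 in siEchs1 E2C, 19.4, 26.9 and 20.9 in siCon L2C and 3.22, 2.77 and 1.91 in siEchs1 L2C (difference -3.02 ± 0.42 (SE, adjusted p = 0.0021)). Kdm3a, a demethylase of the same residue, was at 50.5, 58.1 and 60.7 FPKM in siCon L2C and 8.46, 6.08 and 3.28 in siEchs1 L2C (difference -2.25 ± 0.54 (SE, adjusted p = 0.0169)). In the transcription machinery, 15 of 95 members were called lower (15.8%) and 3 higher (3.16%), against 11.6% and 5.65% of all tested genes. The count called lower was 9 without siEchs1 L2C replicate 2 or siEchs1 L2C replicate 3 and 27 without siEchs1 E2C replicate 3. The count called higher was 0 without siCon E2C replicate 3 or siEchs1 L2C replicate 3, 1 without siCon E2C replicate 1 and 5 without siEchs1 E2C replicate 1. Supt5, an elongation factor that travels with RNA polymerase II, was at 90.6, 63.7 and 117 FPKM in siCon L2C and 27.9, 22.6 and 24.2 in siEchs1 L2C (difference -2.31 ± 0.48 (SE, adjusted p = 0.0102)). Taf4b, a TFIID subunit known from oocytes, had a difference of -2.56 ± 0.41 (SE, adjusted p = 0.00386).

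Genes that act on crotonyl-CoA or on histone crotonylation had 5 of 35 tested members called lower (14.3%) and 0 higher, shares near or below the 11.6% and 5.65% of all tested genes. The median was -0.72, and it was -0.45 without siCon L2C replicate 3 and -0.42 without siEchs1 L2C replicate 3. Hdac1, a class I deacetylase that can remove crotonyl groups, stood at 13.5, 15.7 and 20.4 FPKM in siCon E2C, 6.02, 13.5 and 16.4 in siEchs1 E2C, 185, 179 and 249 in siCon L2C and 20.2, 29.6 and 12 in siEchs1 L2C. In siCon it rose with stage (3.55), and the siEchs1 libraries of L2C overlapped with those of E2C (difference -2.80 ± 0.58 (SE, adjusted p = 0.00963)). Hdac3, a related deacetylase, stood at 0.40, 1.08 and 1.28 FPKM in siCon E2C, 5.83, 6.99 and 4.81 in siEchs1 E2C, 4.04, 3.33 and 2.75 in siCon L2C and 28.8, 16.6 and 16.8 in siEchs1 L2C. It was higher in siEchs1 at both stages (1.86 and 2.28), and the difference did not pass (0.42 ± 0.47 (SE, adjusted p = 0.567)). Ep300, which encodes p300, missed the threshold (-1.44 ± 0.51 (SE, adjusted p = 0.0683)), and so did Cdyl, a crotonyl-CoA hydratase (0.29 ± 0.42 (SE, adjusted p = 0.666)). With siEchs1 E2C replicate 1 left out, Ep300 passed (adjusted p = 0.038). Of the 5 members called lower, 3 kept their calls in 4 to 6 of the 12 fits without 1 library, and the count of the list was 2 without siCon L2C replicate 3, siEchs1 L2C replicate 1 or siEchs1 L2C replicate 3 and 3 without siCon E2C replicate 1, siCon E2C replicate 2, siCon E2C replicate 3, siCon L2C replicate 1 or siEchs1 L2C replicate 2.

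Stress response genes that rose with stage in siCon were part of the same picture. Of 24 tested genes of the p53 response, 7 were called lower (29.2%) and 1 higher (4.17%), with a median of -0.90 that was -1.38 without siCon L2C replicate 3. The count called lower was 4 without siCon E2C replicate 2, siCon E2C replicate 3 or siEchs1 L2C replicate 3. Sesn2, a sestrin also counted in the ATF4 list, stood at 1.38, 1.36 and 1.15 FPKM in siCon E2C, 0.44, 1.11 and 4.43 in siEchs1 E2C, 128, 113 and 181 in siCon L2C and 11.3, 13.4 and 4.11 in siEchs1 L2C (difference -3.99 ± 0.71 (SE, adjusted p = 0.00562)). Bbc3, which encodes the pro-apoptotic protein PUMA, was at 30.5, 7.78 and 11 FPKM in siCon L2C and at 1.44 FPKM or less in each of the 9 other libraries (difference -3.35 ± 0.67 (SE, adjusted p = 0.0086)). Gadd45a was lower in siEchs1 at both stages, by more at L2C. It stood at 6.41, 8.4 and 6.54 FPKM in siCon E2C, 1.31, 1.41 and 2.48 in siEchs1 E2C, 164, 162 and 230.4 in siCon L2C and 18.6, 12.1 and 8.59 in siEchs1 L2C (difference -2.18 ± 0.48 (SE, adjusted p = 0.0119)). In the ATF4 list 6 of 28 were called lower (21.4%) and 0 higher, with a count of 3 without siCon E2C replicate 3 or siEchs1 L2C replicate 3. Ern1, the stress sensor IRE1 alpha, differed through E2C, with 8.48, 8.34 and 7.4 FPKM in siCon and 34.7, 42.2 and 39.3 in siEchs1 there. L2C values were 44.8, 30.0 and 19.4 FPKM in siCon and 23.6, 26.7 and 26.4 in siEchs1, and these overlapped (difference -2.34 ± 0.45 (SE, adjusted p = 0.00719)).

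Among glycolytic genes the effect at either stage contributed. Of 40 tested genes of glycolysis and the TCA cycle, 7 were called lower (17.5%) and 3 higher (7.5%), with a median of -0.58. The shares of all tested genes were 11.6% and 5.65%. Calls lower numbered 4 without siCon E2C replicate 2 and 11 without siEchs1 E2C replicate 3. Only 1 was called higher without siCon E2C replicates 1 or 2 or siEchs1 L2C replicate 1, and the median was -0.38 without siEchs1 L2C replicate 3. Pgam1, a phosphoglycerate mutase, stood at 7.96, 6.94 and 6.93 FPKM in siCon E2C, 17.3, 13.3 and 22.1 in siEchs1 E2C, 129.7, 115 and 142 in siCon L2C and 34, 33.9 and 16.8 in siEchs1 L2C, so it was higher in siEchs1 at E2C and lower at L2C (difference -3.36 ± 0.47 (SE, adjusted p = 0.0021)). Pkm, the pyruvate kinase, stood at 11.9, 13.2 and 13.5 FPKM in siCon E2C, 40.4, 101 and 75.6 in siEchs1 E2C, 255, 299 and 218 in siCon L2C and 350.4, 217 and 238 in siEchs1 L2C. Its groups overlapped at L2C and were apart at E2C (difference -2.27 ± 0.50 (SE, adjusted p = 0.0124)). Slc2a3, a glucose transporter, was at 32.7, 22.7 and 17.2 FPKM in siCon L2C and at 2.16 FPKM or less in each of the 9 other libraries (difference -2.99 ± 0.52 (SE, adjusted p = 0.00546)). Idh1, the cytosolic isocitrate dehydrogenase, went the opposite way, at 4.47, 4.3 and 1.58 FPKM in siCon L2C and 19.8, 19.9 and 24.5 in siEchs1 L2C (difference 2.95 ± 0.62 (SE, adjusted p = 0.0106)). Srebf1, the transcription factor of fatty acid synthesis, was high in siEchs1 L2C alone, at 89.3, 60.4 and 60.7 FPKM against 8.53 FPKM or less elsewhere (difference 3.02 ± 0.62 (SE, adjusted p = 0.00963)), while its known target Fads2 (-2.24) was called lower. With a pseudocount of 0.1 the call of Fads2 ended (adjusted p = 0.12).

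Named cell cycle genes were called in both directions. Ticrr, a factor for the start of DNA replication, was at 77.8, 90.5 and 118 FPKM in siCon L2C and 10.0, 19.7 and 10.4 in siEchs1 L2C (difference -3.48 ± 0.49 (SE, adjusted p = 0.00214)). Cdc25c, the phosphatase that triggers mitosis, was at 113, 91.9 and 169 FPKM in siCon L2C and 9.05, 16.9 and 7.37 in siEchs1 L2C (difference -3.02 ± 0.61 (SE, adjusted p = 0.00896)). Pttg1, which encodes securin, stood at 6595, 6795 and 7248 FPKM in siCon E2C, 6301, 3306 and 4642 in siEchs1 E2C, 1251, 1994 and 1416 in siCon L2C and 4594, 5624 and 3865 in siEchs1 L2C (difference 2.19 ± 0.43 (SE, adjusted p = 0.00792)). Over the lists, 6 of 47 tested G2 and M phase genes were called lower and 2 higher, and 4 of 51 tested replication genes lower and 1 higher. The shares called lower, 12.8% and 7.84%, lie near or below the 11.6% of all genes. Those called higher, 4.26% and 1.96%, lie below the 5.65% of all genes. Without siEchs1 E2C replicate 3 these counts called lower were 12 and 13, and without siEchs1 L2C replicate 3 they were 3 and 1. The count of replication genes was also 1 without siCon E2C replicate 3 and 2 without siCon E2C replicate 2, siEchs1 E2C replicate 2, siCon L2C replicate 3 or siEchs1 L2C replicates 1 or 2.

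Maternal transcripts were called higher more than lower. Of 90 tested genes of the oocyte list, 18 were called higher (20%) and 3 lower (3.33%), with a median difference of 1.32. In siCon 39 of them (43.3%) fell with stage, and in siEchs1 17 (18.9%) did, against 14.4% and 2.73% of all tested genes. At L2C 65 were higher in siEchs1 (72.2%, against 21.9% of all) and 11 lower (12.2%, against 26.9%). At E2C 32 were higher (35.6%, against 11% of all) and 13 lower (14.4%, against 9.31%), so both shares at E2C lay above those of all genes. The count called higher was 7 without siCon E2C replicate 3, 8 without siCon E2C replicate 1, siCon E2C replicate 2, siEchs1 L2C replicate 2 or siEchs1 L2C replicate 3, 10 without siCon L2C replicate 3 and 29 without siEchs1 E2C replicate 3. The median was 0.64 without replicate 3 of siEchs1 E2C, where the count was larger. Rfpl4, an oocyte ubiquitin ligase, stood at 2944, 1353 and 3335 FPKM in siCon E2C, 2684, 2806 and 3854 in siEchs1 E2C, 147, 136 and 82.3 in siCon L2C and 1193, 1084 and 1216 in siEchs1 L2C. Its groups overlapped at E2C, and at L2C siEchs1 lay above siCon by 3.29 on the log2 scale (difference 2.91 ± 0.52 (SE, adjusted p = 0.00568)). Nlrp4a, an oocyte NLRP protein, stood at 263, 193 and 244 FPKM in siCon E2C, 189, 183 and 193 in siEchs1 E2C, 21.2, 17.4 and 17.3 in siCon L2C and 67.2, 117 and 109 in siEchs1 L2C (difference 2.59 ± 0.41 (SE, adjusted p = 0.0038)). Npm2, the maternal nucleoplasmin that remodels sperm chromatin, was at 162, 178 and 121 FPKM in siCon L2C and 1429.8, 1089 and 958 in siEchs1 L2C (difference 2.27 ± 0.46 (SE, adjusted p = 0.00914)).

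Other maternal transcripts were already far higher in siEchs1 at E2C and were not called for the difference. Zp3, a protein of the egg coat, stood at 36.3, 36.7 and 28 FPKM in siCon E2C, 3071, 3622 and 35.9 in siEchs1 E2C, 44.8, 70.8 and 93.7 in siCon L2C and 4409, 3188 and 2631 in siEchs1 L2C. Mos, a kinase of meiotic arrest, was measured at 4.8, 5.89 and 5.96 FPKM in siCon E2C, 676, 808 and 7.7 in siEchs1 E2C, 4.03, 6.25 and 6.26 in siCon L2C and 683, 589 and 673 in siEchs1 L2C. In both genes replicate 3 of siEchs1 E2C lay near the siCon libraries and the other 2 lay near siEchs1 L2C. The difference was 1.19 ± 1.79 (SE, adjusted p = 0.675) for Zp3 and 1.97 ± 1.75 (SE, adjusted p = 0.457) for Mos, and it turned to -0.98 (adjusted p = 0.121) and -0.17 (adjusted p = 0.767) without that library. Khdc3, of the subcortical maternal complex, showed this as well, at 961, 1221 and 28.8 FPKM in siEchs1 E2C against 14.8, 5.45 and 14.4 in siCon E2C, with a difference of 0.38 ± 1.48 (SE, adjusted p = 0.882) that turned to -1.35 (adjusted p = 0.0707). Gdf9, a growth factor secreted by oocytes, was at 1627, 3903 and 292 FPKM in siEchs1 E2C and 5704, 3861 and 3702 in siEchs1 L2C, against 179 to 236 FPKM in the 6 siCon libraries (difference 1.69 ± 0.95 (SE, adjusted p = 0.232)), and the related Bmp15 also missed the threshold (1.09 ± 0.47 (SE, adjusted p = 0.124)). That of Gdf9 passed without siEchs1 E2C replicate 2 (adjusted p = 0.0436).

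Zar1, a maternal RNA-binding protein, was called higher on top of an effect at E2C. It stood at 37.4, 24.8 and 25 FPKM in siCon E2C, 334, 670.4 and 89.1 in siEchs1 E2C, 24.9, 26 and 27.1 in siCon L2C and 2195, 1334 and 1684 in siEchs1 L2C (difference 2.77 ± 0.79 (SE, adjusted p = 0.0313)). That call ended without siCon E2C replicates 1, 2 or 3 (adjusted p = 0.0734, 0.0578 and 0.0609), siCon L2C replicates 1, 2 or 3 (0.0594, 0.0577 and 0.0577) and siEchs1 L2C replicates 1 or 3 (0.0676 and 0.0722). Btg4, the adaptor that brings the CCR4-NOT deadenylase to maternal mRNA, stood at 6055, 4491 and 5778 FPKM in siCon E2C, 2568, 2381 and 3186 in siEchs1 E2C, 1193, 876 and 379.8 in siCon L2C and 1190.4, 1279.9 and 1708 in siEchs1 L2C (difference 1.91 ± 0.54 (SE, adjusted p = 0.0305)). Its call ended after quantile normalization (adjusted p = 0.111), after the rescaling (0.0696) and with no filter on low values (0.0712), as did that of Zar1 with no filter (0.0806). The call of Btg4 also ended without siCon E2C replicates 1, 2 or 3 (adjusted p = 0.0717, 0.0516 and 0.0741), siEchs1 E2C replicate 2 (0.0551) and siEchs1 L2C replicates 2 or 3 (0.0561 and 0.0852). In the list of mRNA decay genes, 8 of 52 tested were called lower (15.4%) and 1, Btg4, higher (1.92%), against 11.6% and 5.65% of all. The count called lower was 3 without siEchs1 L2C replicate 3, 4 without siCon E2C replicate 2, siCon E2C replicate 3 or siEchs1 L2C replicate 2 and 5 without siCon E2C replicate 1, siCon L2C replicate 1 or siCon L2C replicate 3. Cnot8, a CCR4-NOT deadenylase subunit, was at 286, 254 and 277 FPKM in siCon L2C and 133, 126 and 122 in siEchs1 L2C (difference -1.87 ± 0.42 (SE, adjusted p = 0.014)), and Dis3, the exosome nuclease, had a difference of -2.22 ± 0.52 (SE, adjusted p = 0.0155).

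**Figure D5:**
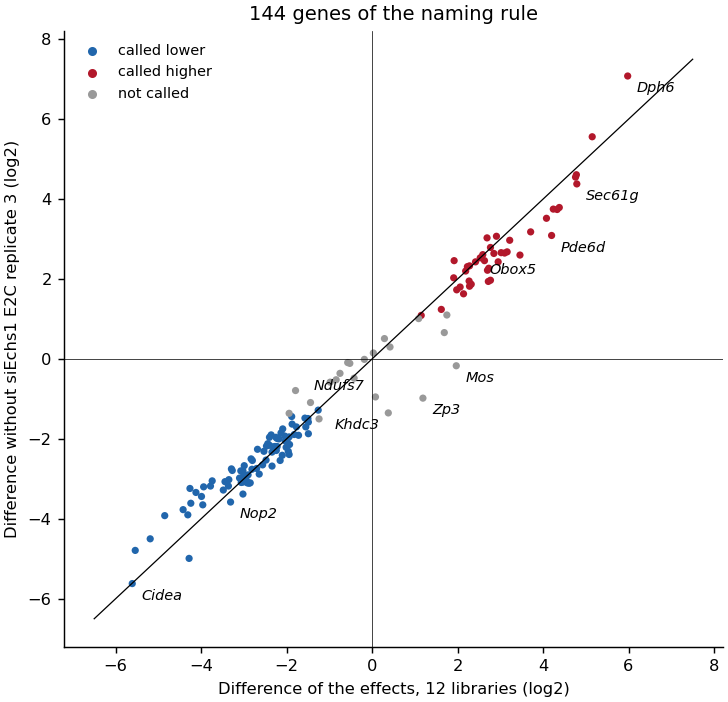
Difference of the siEchs1 effects on the log2 scale with all 12 libraries (horizontal) against the same without replicate 3 of siEchs1 E2C (vertical), for the 144 genes of the naming rule. Colours give the call on all libraries, and the line marks equal values. Genes called in either direction keep their sign, some of them off the line, such as Pde6d, while Zp3, Mos and Khdc3 cross to negative values. The 10 largest differences per direction had to stay called without this library, so their place here was partly set by the rule.

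Most transient 2-cell genes were lower in siEchs1 at L2C and about as many as not at E2C. Of 39 tested, 20 were lower at E2C (51.3%, against 9.31% of all tested genes) and 30 at L2C (76.9%, against 26.9%). For the difference 3 were called higher and 3 lower (7.69% each, against 5.65% and 11.6% of all). The median difference was -0.98, and -0.58 without siEchs1 E2C replicate 3. The count called lower was 1 without siEchs1 L2C replicate 3 and 12 without siEchs1 E2C replicate 1, and the count called higher was 5 without siEchs1 E2C replicate 3. Zscan4d, a marker of the 2-cell state, stood at 128, 107 and 137 FPKM in siCon E2C, 26.1, 35.2 and 26.4 in siEchs1 E2C, 102, 67.2 and 67 in siCon L2C and 15.2, 14.6 and 10.1 in siEchs1 L2C. Its effect was -2.06 at E2C and -2.47 at L2C, with a difference of -0.42 ± 0.42 (SE, adjusted p = 0.521). Zscan4c (-0.75 ± 0.98 (SE, adjusted p = 0.625)), the homeobox gene Obox6 (-0.98 ± 0.98 (SE, adjusted p = 0.516)), Tcstv3 (0.03 ± 0.56 (SE, adjusted p = 0.979)), Zfp352 (-1.94 ± 0.74 (SE, adjusted p = 0.089)) and Duxf3 (-1.79 ± 0.98 (SE, adjusted p = 0.222)) did not pass, nor did the zygotic factors Klf17 (-0.84 ± 0.64 (SE, adjusted p = 0.384)) and Eif1ax (1.75 ± 0.73 (SE, adjusted p = 0.115)). Without siEchs1 E2C replicate 1 the differences of Zfp352 (adjusted p = 0.00826), Klf17 (0.0182) and Eif1ax (0.0353) passed, and after quantile normalization that of Eif1ax did (0.0288). A p above the threshold does not show equal effects, and the SE of these differences lay between 0.42 and 0.98.

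Obox5 and Obox1 differed from Obox6. Obox5 stood at 5404, 5114 and 5756 FPKM in siCon E2C, 2175, 2169 and 2172 in siEchs1 E2C, 223, 183 and 143 in siCon L2C and 305, 432 and 555 in siEchs1 L2C. It was lower in siEchs1 at E2C (-1.32) and higher at L2C (1.21), without overlap at either stage (difference 2.53 ± 0.41 (SE, adjusted p = 0.00386)). Obox1 stood at 105, 139.8 and 61.7 FPKM in siCon L2C and 588, 788 and 905 in siEchs1 L2C, with overlapping groups at E2C (difference 3.16 ± 0.59 (SE, adjusted p = 0.00671)). Both genes are expressed in oocytes and belong to a multi-copy family that shares reads. Snai1, a zinc finger repressor on the same list, was called lower. It stood at 3.76, 1.8 and 2.57 FPKM in siCon E2C, 7.5, 12.3 and 19.2 in siEchs1 E2C, 129.8, 207 and 258 in siCon L2C and 56.5, 42.4 and 35.1 in siEchs1 L2C, higher in siEchs1 at E2C and lower at L2C (difference -3.96 ± 0.56 (SE, adjusted p = 0.00214)).

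Most mitochondrially encoded RNAs were lower in siEchs1 at both stages. Of 13 tested, 10 were lower at E2C (76.9%, against 9.31% of all tested genes) and 13 at L2C (100%, against 26.9%). None was called for the difference by limma, 1 was lower at an unadjusted p under 0.05, and 1 was called lower after quantile normalization and without siCon L2C replicate 1. The list had a median difference of -0.94, which was -0.11 without replicate 3 of siEchs1 E2C, the library with the highest mitochondrial share of its group. The FPKM of mt-Atp6, a subunit of ATP synthase, was 27987, 40468 and 39574 in siCon E2C, 4271, 2795 and 9405 in siEchs1 E2C, 18064, 21127 and 21585 in siCon L2C and 1364, 2754 and 1669 in siEchs1 L2C. Its difference was -0.57 ± 0.58 (SE, adjusted p = 0.521), and that of mt-Cytb, a subunit of complex III, was -0.52 ± 0.66 (SE, adjusted p = 0.615).

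Nuclear genes for mitochondrial proteins were mostly not called. Of 78 tested nuclear subunits of oxidative phosphorylation, 6 were called higher (7.69%, near the 5.65% of all tested genes) and 0 lower, with a median difference of 0.96 that was 1.57 without siEchs1 E2C replicate 1. Without replicate 3 of siEchs1 E2C, 9 were higher and 7 lower, with a median of 0.35. The count called higher was 3 without siCon E2C replicate 2, siCon E2C replicate 3, siCon L2C replicate 1, siEchs1 L2C replicate 1, siEchs1 L2C replicate 2 or siEchs1 L2C replicate 3 and 25 without siEchs1 E2C replicate 1. At L2C 42 were higher in siEchs1 (53.8%, against 21.9% of all) and 2 lower (2.56%, against 26.9%). At E2C 10 were higher (12.8%, against 11%) and 1 lower (1.28%, against 9.31%). Cox6c, of cytochrome c oxidase, stood at 793, 1050.4 and 1021 FPKM in siCon E2C, 889.7, 485 and 422 in siEchs1 E2C, 79.4, 129.9 and 172 in siCon L2C and 480.1, 622 and 492 in siEchs1 L2C (difference 2.85 ± 0.51 (SE, adjusted p = 0.00579)). Ndufs7, of complex I, was at 179, 155 and 18.8 FPKM in siEchs1 E2C and 193, 117 and 114 in siEchs1 L2C, and its difference was 0.08 ± 0.93 (SE, adjusted p = 0.961) and -0.95 (adjusted p = 0.125) without that library.

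Of 79 tested mitochondrial ribosomal proteins, 9 were called higher (11.4%) and 2 lower (2.53%), with a median of 0.73. Without replicate 3 of siEchs1 E2C, 11 were higher and 16 lower, with a median of -0.05. In that fit 7.3% of all tested genes were called higher and 15.7% lower, with a median of -0.26. The sign of the list median thus rested on that library, while its place above the median of all genes did not. The count called higher was 3 without siEchs1 L2C replicate 3, 4 without siCon E2C replicate 2, siCon E2C replicate 3, siCon L2C replicate 3 or siEchs1 L2C replicate 1, 5 without siCon L2C replicate 1 or siEchs1 L2C replicate 2 and 21 without siEchs1 E2C replicate 1, and the median was 1.29 without siEchs1 E2C replicate 1. Mrps33 stood at 402, 606 and 792 FPKM in siCon E2C, 1130.5, 715 and 299.6 in siEchs1 E2C, 28.7, 25.1 and 28 in siCon L2C and 341, 404 and 455 in siEchs1 L2C (difference 3.71 ± 0.61 (SE, adjusted p = 0.00431)). Mrpl53 was at 17.4, 19.2 and 19.5 FPKM in siCon L2C and 68.4, 78.8 and 83.7 in siEchs1 L2C (difference 2.77 ± 0.40 (SE, adjusted p = 0.00266)). Mrps30, at 41.5, 33.6 and 46.5 FPKM in siCon L2C and 10.5, 10.7 and 9.76 in siEchs1 L2C, was called lower (difference -1.77 ± 0.41 (SE, adjusted p = 0.0151)). Eif1b, a translation initiation factor, was called higher with close replicates, at 444, 423 and 492 FPKM in siCon E2C, 463, 547 and 510.3 in siEchs1 E2C, 83.8, 131 and 91.5 in siCon L2C and 499, 659.9 and 670.3 in siEchs1 L2C (difference 2.42 ± 0.39 (SE, adjusted p = 0.00381)).

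Markers of other cells a tube could hold were measured in every library. The summed FPKM of 19 cumulus and granulosa markers was 103.5 to 149.1 in siCon L2C and 10.5 to 19.9 in the other 9 libraries, and Amhr2 alone reached 91.8 to 145 FPKM of it in siCon L2C. Among cumulus expansion genes, Ptx3 and Has2 were at 0.61 FPKM or less in all 12 libraries, while Tnfaip6 was at 0.66 to 3.37 FPKM in siCon and 0 to 0.54 in siEchs1. The granulosa gene Cyp19a1 was at 0.47 to 1.87 FPKM in siCon L2C and 1.35 to 8.9 in the other 9 libraries. Summed blood markers lay between 67.5 and 136 FPKM in siCon and between 3.3 and 24.6 in siEchs1, and sperm markers lay between 59.9 and 259 FPKM. Oviduct markers summed to 10.6 to 13.4 FPKM in siCon L2C and 2.31 to 9.61 in the other 9 libraries. Of the tested markers, 2 of 6 for sperm were called higher, Acrv1 and Smcp, and 1 of 4 for oviduct, Sox17, was called lower. Acrv1 was at 4.01 to 6.35 FPKM in siCon E2C and at 1.78 or less in the other 9 libraries. Smcp was at 1.91 to 6.4 FPKM in siCon E2C and at 0 in the other 9. Both were thus highest in siCon E2C, and their calls do not show a gain in siEchs1. None of 4 for cumulus or 4 for blood was called by limma, and at an unadjusted p under 0.05 these were 1 and 0. The part of other cells in the results was not tested, and in pooled embryos fewer cells with a transcript and less of it per cell cannot be told apart.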

How the data were processed

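Smart-seq2 libraries of 5 to 10 embryos were read as 150 nt pairs, per the labels' protocols. Trimming with cutadapt 1.16 and alignment by STAR to mm10 are recorded per the submitters' processing notes, and the sources used here do not give the program or annotation behind the values. FPKM, as the authors deposited it in 1 file of 55335 entries per library, is scaled by library depth and gene length, without counts or strand, so overlapping and antisense genes cannot be told apart. Groups and replicate numbers came from sample titles, which disagreed with file headers on replicates 2 and 3 of siEchs1 L2C.

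After removing 210 entries of 104 repeated symbols and 27 date-like symbols, 55098 genes stayed. A gene was tested if 3 or more of the 12 libraries reached 1 FPKM (17652 genes), on the scale log2(FPKM + 1), which understates changes of low genes. The fit was limma-trend, robust, on 4 group means without covariates (limma 3.58.1 in R 4.3.3), two-sided, with Benjamini-Hochberg adjustment over all tested genes. The script was tested on simulated data. Positions are from GENCODE M21, matched by symbol for 17345 tested genes, and promoters from RefSeq.

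Named genes were Echs1, a fixed set of markers, up to 4 called members of any list with at least 3, and the 10 largest differences per direction. For the last, genes needed a mean of at least 5 FPKM and a call that held without replicate 3 of siEchs1 E2C, and predicted genes and pseudogenes did not enter. Some genes the rule names are not reported here. Genes named as a remainder of a small count were chosen after their values were seen. Rising and falling sets needed an adjusted p under 0.05 and a mean stage change of at least 2. The members, the 33 lists and the rule were chosen with earlier results of these data known. Alternatives were other scalings and filters, a pseudocount of 0.1, no trend, the replicate number as a block, single-stage fits and leaving out each library. List counts under these were an addition made with the data in view.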

Additional observations from a re-analysis of the deposited data

Results flagged for a closer look

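The siEchs1 effect differed between E2C and L2C, by the test of the difference itself, for 2042 genes called lower and 997 called higher. In 66 of the former and 55 of the latter the effect passed at both stages with opposite signs. Among the named genes this held for 10. Sec61g (4.79), Iglc2 (4.78), Atp6v0e2 (4.24) and Obox5 (2.53) were lower in siEchs1 at E2C and higher at L2C. Snai1 (-3.96), Pgam1 (-3.36), Snrpc, a U1 snRNP protein (-3.02), Espl1, the separase that opens cohesin at anaphase (-2.92), Supt6, a histone chaperone of transcription elongation (-2.40), and Rpl8 (-2.22) were higher at E2C and lower at L2C. The values are differences of the effects on the log2 scale. All 10 kept their call in each of the 12 fits that left out 1 library.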

How the results depend on the processing

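Whether replicate numbers pair the samples was not settled. Deviations of same-numbered libraries correlated between -0.10 and 0.11 (median -0.03) by title number and between -0.10 and 0.22 by header number. Those of differently numbered libraries correlated between -0.155 and 0.224 by title number and between -0.155 and 0.138 by header number. With 3 libraries per group, such values cannot exclude a pairing. With the replicate number as a block, 1629 genes were called lower and 826 higher by title number and 1789 and 878 by header number. Ribosome biogenesis factors called lower were then 17 by title number, and the call of Btg4 ended (adjusted p = 0.0529). For the rising set the median difference was -1.15 and for the falling set 1.46 with a stage change of at least 1. With no filter on low values, 1280 genes were called lower and 589 higher, 1138 were higher at E2C and 242 fell with stage in siEchs1. The lists then had 12 ribosome biogenesis, 7 embryonic activation, 7 lineage, 4 chromatin and 8 nuclear transport genes called lower, and 8 oocyte and 4 mitochondrial ribosome genes called higher. Among genes with a mean of at least 5 FPKM, fewer genes were tested, and 1158 were called lower for the difference, 2648 lower at L2C and 3858 as rising in siCon, with 6 lineage genes. With a pseudocount of 0.1, 1073 genes were called lower, with 4 embryonic activation, 7 lineage and 7 chromatin genes. After quantile normalization 1600 genes were called higher, 4192 rose and 4243 fell with stage in siCon, 1075 rose and 785 fell in siEchs1, 22 mitochondrial ribosome genes were called higher, and the rising set had a median of -1.69. The E2C libraries alone gave 532 genes higher and 821 lower. The cause of these changes was not tested, other than fewer samples or genes where stated.

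Leaving out 1 library at a time gave 831 to 2772 genes called lower and 460 to 1517 higher, 882 to 4052 higher and 1007 to 2444 lower at E2C, and 2944 to 4849 higher and 3824 to 5459 lower at L2C. In siCon 5276 to 7256 rose and 1972 to 3276 fell with stage, and in siEchs1 1015 to 2556 rose and 159 to 897 fell. Calls lower ranged over 10 to 44 for ribosome biogenesis, 6 to 15 for embryonic activation, 4 to 14 for lineage, 2 to 15 for chromatin and 7 to 17 for nuclear transport, and calls higher over 7 to 29 for the oocyte list and 3 to 21 for mitochondrial ribosomes. The set medians lay between -1.59 and -1.26 (rising) and between 1.81 and 2.27 (falling). No called direction reversed under any setting run, while some uncalled differences (Zp3, Mos, Khdc3 and Ndufs7 among them) and some list medians changed sign. Without siEchs1 E2C replicate 3 the median went from 0.23 to -0.69 for the proteasome and from 0.47 to -0.09 for fatty acid oxidation, and without siEchs1 E2C replicate 2 from -0.29 to 0.15 for tRNA synthetases. Over the named genes, 77 results lost their call and 2 gained one under the other settings (1063 did neither), as did 188 and 6 with 1 library left out. Depth is unknown, and so is the counting error of low values.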

Other observations

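Lysosome and autophagy genes were called in both directions, 10 of 49 tested lower (20.4%, against 11.6% of all tested genes) and 4 higher (8.16%, against 5.65%), with a median difference of -0.69. The count called lower was 4 without siEchs1 L2C replicate 3, 5 without siCon E2C replicate 1 or siCon E2C replicate 3 and 6 without siCon E2C replicate 2, siEchs1 E2C replicate 2, siCon L2C replicate 2 or siEchs1 L2C replicate 2, and the count called higher was 2 without siCon E2C replicate 3, siEchs1 L2C replicate 1 or siEchs1 L2C replicate 3. Ulk1, the kinase that starts autophagy, stood at 3.05, 1.87 and 3.2 FPKM in siCon E2C, 4.06, 6.4 and 20.2 in siEchs1 E2C, 32.6, 42 and 63.8 in siCon L2C and 10.1, 7.8 and 5.03 in siEchs1 L2C (difference -3.78 ± 0.69 (SE, adjusted p = 0.00627)). Wipi2, which acts in the forming autophagosome, was at 80.8, 132 and 207 FPKM in siCon L2C and 23.5, 27.5 and 15.5 in siEchs1 L2C (difference -3.01 ± 0.53 (SE, adjusted p = 0.00562)). Atp6v1g1, a subunit of the vacuolar proton pump, went the other way, at 33.3, 35.2 and 34.8 FPKM in siCon L2C and 163, 155 and 149.6 in siEchs1 L2C (difference 1.98 ± 0.40 (SE, adjusted p = 0.00938)).

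Of 72 tested splicing genes, 8 were called lower (11.1%) and 3 higher (4.17%), near the shares of all tested genes. The count called lower was 2 without siEchs1 L2C replicate 3, 3 without siCon E2C replicate 1, 4 without siCon E2C replicate 2 or siCon E2C replicate 3, 5 without siEchs1 L2C replicate 1 and 16 without siEchs1 E2C replicate 3, and 5 were higher without siEchs1 E2C replicate 3. Snrpb2, a protein of the U2 snRNP, stood at 261, 258 and 367 FPKM in siCon E2C, 243, 175 and 248 in siEchs1 E2C, 27, 34.8 and 27.3 in siCon L2C and 71.3, 123 and 138 in siEchs1 L2C (difference 2.23 ± 0.46 (SE, adjusted p = 0.0096)). Sf1, which binds the branch point, was at 73.2, 71.3 and 108 FPKM in siCon L2C and 40.1, 32 and 35.8 in siEchs1 L2C (difference -2.13 ± 0.47 (SE, adjusted p = 0.0124)). Among chaperones, Hspe1, the mitochondrial co-chaperonin, was called higher (2.28 ± 0.48 (SE, adjusted p = 0.0108)), and Hspa1b, an inducible HSP70, lower (-2.53 ± 0.53 (SE, adjusted p = 0.0102)). Stat2, a transducer of interferon signals, was at 25.9, 21 and 48.2 FPKM in siCon L2C and at 4.16 FPKM or less in each of the 9 other libraries (difference -2.81 ± 0.48 (SE, adjusted p = 0.00525)).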
